A study of Caenorhabditis elegans with 2 samples.

Results

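Core and linker histone genes were taken as the protein-coding genes of the nematode Caenorhabditis elegans whose Ensembl name begins with his- or hil- and a digit. This rule used names and no peak value, though earlier results of these data were known when it was chosen. The genes numbered 80 of the 19973 nuclear protein-coding genes. The genomic sites of a tagged forkhead protein, FKH-10, had been mapped by chromatin immunoprecipitation and sequencing (ChIP-seq), which recovers the DNA that a chosen protein contacts. There was 1 group of 2 biological replicates, each of whole late embryos of both sexes. The strain, OP337 per the labels, carries the unc-119(ed3) mutation and the transgene wgIs377, in which fkh-10 is joined to TY1, EGFP and FLAG tags beside a copy of unc-119. Both replicates carry all of these alleles, no untagged strain was analysed here, and the number of the strain differs from that of the insertion in the label. A summit was counted for a gene when the summit of a peak lay between 1000 bp upstream and 500 bp downstream of its 5' end. Summits were read from 4 lists on the ce11 build, namely the thresholded (optimal) list of 378 peaks, the relaxed list called on both replicates together (pooled, 7443 peaks) and the relaxed lists of replicate 1 (27900) and replicate 2 (30000). By their name the relaxed lists hold background as well as peaks, so a summit in them alone is not a called site. Each peak has a height in the authors' own units, which was compared within a list only. The lists hold no read counts, so the depth is unknown, and no test over samples was possible in 1 group.

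Core histones H2A, H2B, H3 and H4 form the protein spool of the nucleosome, around which nuclear DNA is wound. Linker histones of the H1 family bind the DNA that enters and leaves the spool, and H3.3 is a form of H3 that can be placed outside of DNA replication. In the worm, genes of the canonical core histones lie mostly in clusters of divergent pairs. In most of these pairs, H2A faces H2B or H3 faces H4 across a short shared spacer. Early embryos with their rapid divisions need large amounts of the products, whereas the samples here were late embryos. Forkhead proteins such as FKH-10 are transcription factors with a winged-helix DNA-binding domain.

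The 80 genes comprised 17 of H2A, 16 of H2B, 15 of H3, 16 of H4, 5 of H3.3 or an H3.3-like protein, 9 linker histone genes (hil-1 to hil-8 and his-24) and 2, his-39 and his-73, whose RefSeq product names no single family. Their Ensembl names were not unique. The 80 records carried 58 names, and 36 records shared 14 of them, so each is given below by the RefSeq symbol of its WormBase identifier, which was found for all 80 and was unique. The sequence copies behind the shared names were exact except at his-57, which shares the name of his-47 but is annotated with 1314 bp, not 384. The 80 genes had 59 distinct sequences from first to last annotated base. An identical sequence in at least 1 other gene was found for 35 genes. In 65 of the 80, the annotated 5' end was the first coding base, so that distances given for them are distances to the start codon. The same held for 4697 of all 19973 genes.

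Few histone genes had a summit in the thresholded list, though their share was above that of all genes. Fewer still lay at separate sites, since neighbours shared summits. In the optimal list, 4 of the 80 had a summit (5%, 95% Wilson interval 1.96 to 12.2). Of all nuclear protein-coding genes 0.976% had one, which lies below the interval. In the pooled list, 12 of the 80 had a summit (15%, 8.79 to 24.4), against 13.3% of all genes, which is near that background. The replicate 1 list placed a summit at 20 (25%, 16.8 to 35.5), against 39.6% of all genes, and the replicate 2 list at 24 (30%, 21.1 to 40.8), against 40% of all genes, which lies inside the interval. In windows made almost wholly of words that occur once in the genome, described further on, the histone shares of all 4 lists lay above those of all genes. That range of windows was chosen after the lists had been seen. The pooled share there was 34.6% (19.4 to 53.8), against 14.2% of all genes in the range. The optimal share there was 15.4% (6.15 to 33.5), against 1.08%. For replicate 2 the interval there includes the share of all genes. Both replicate lists had a summit at 14 of the 80 (17.5%, 10.7 to 27.3), against 19.9% of all genes. In 8 of these 14 the closest summits of the 2 replicates lay within 100 bp of each other (10% of the 80), against 8.06% of all genes. These intervals treat genes as independent, which neighbours that share a summit are not. When each summit was counted once, the 80 genes held 3 optimal, 9 pooled, 18 replicate 1 and 23 replicate 2 summits, of which 1, 3, 4 and 7 lay in the windows of several histone genes. The windows of the 80 genes covered 79.7 kb once overlaps were merged, with 3.76 optimal and 11.3 pooled summits per 100 kb. The windows of all genes had 0.590 and 8.79. In the replicate lists the histone windows held 22.6 and 28.8 summits per 100 kb, and the windows of all genes 30.4 and 31.3.

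**Figure D1:**
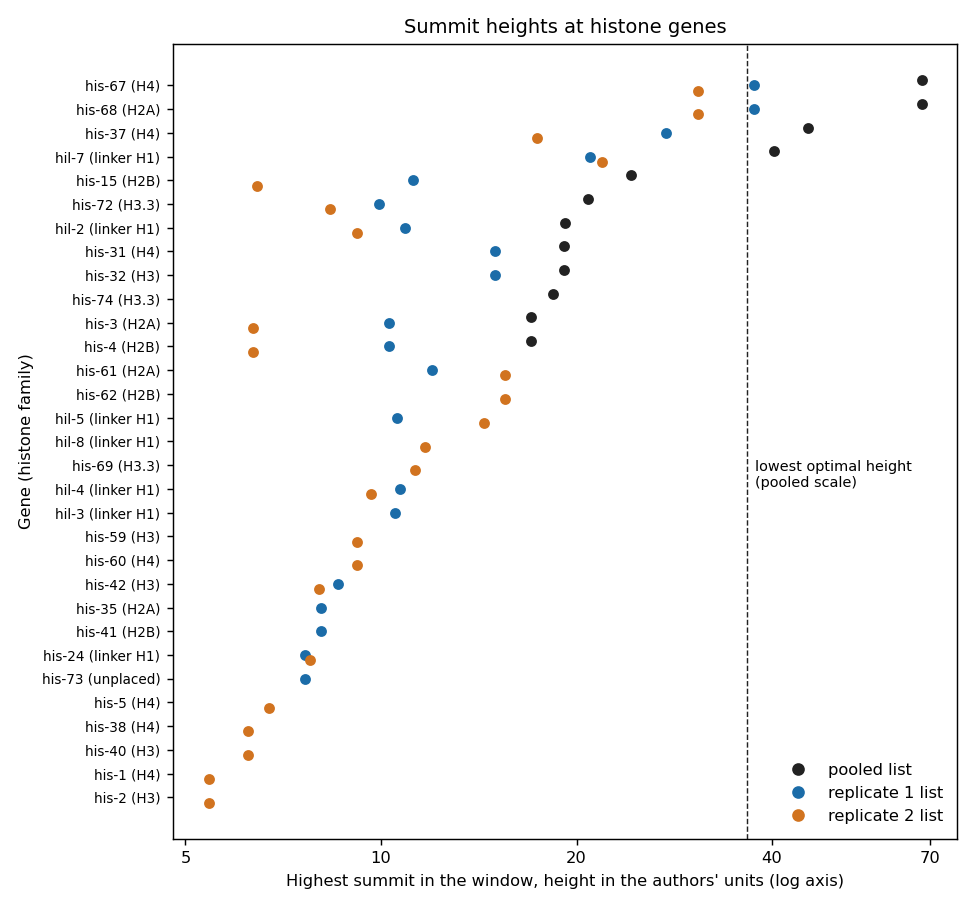
Height of the highest summit in the window of each of the 31 histone genes with a summit in the pooled, replicate 1 or replicate 2 list, on a log axis in the authors' units, with the histone family in brackets. The dashed line is the lowest height of the optimal list, 36.6, which applies to pooled heights. The pooled heights of his-67, his-68, his-37 and hil-7 lie to its right, and 19 genes have a point from a replicate list alone.

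The highest summit lay between his-67, an H4 gene, and his-68, an H2A gene (chromosome I, 9988452 to 9988763 and 9989132 to 9989515). These genes point away from each other with 5' ends 369 bp apart, the only divergent pair of the 31 found in which H4 faces H2A. The pooled summit, at 9988958, was 195 bp upstream of his-67 and 174 bp upstream of his-68. It had a height of 68.0 and ranked 61 of 7443 pooled peaks. The height was 37.5 in replicate 1 (rank 71 of 27900) and 30.8 in replicate 2 (rank 91 of 30000), with both summits 1 bp from the pooled one. This was the histone site with the highest rank in either replicate, and the same peak counts for 2 of the 4 genes of the optimal list. No tRNA, snoRNA or other short RNA gene was annotated within 100 bp of it, and 96.3% of the 50-base words in each gene's window occurred once in the genome.

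The next was the site of his-37, an H4 gene on chromosome V (9547105 to 9547607) beside the H2A gene his-35 and the H2B gene his-41. Its pooled summit lay 70 bp upstream with a height of 45.4 (rank 205). The height was 27.5 in replicate 1 (rank 189) and 17.4 in replicate 2 (rank 536), with summits 69 and 98 bp upstream. The site was thus among the 378 strongest peaks of replicate 1 and not of replicate 2. At hil-7, a linker histone gene on chromosome IV (6646312 to 6646972), the pooled summit lay 142 bp upstream with a height of 40.3 (rank 285), nearest of the 3 to the lowest optimal height of 36.6. Here the order of the replicates was the other way round, with a height of 21.0 in replicate 1 (rank 505, 142 bp upstream) and 21.9 in replicate 2 (rank 250, 212 bp upstream). The windows of his-37 and hil-7 were made up of words that occur once in the genome (100% each), and neither summit lay within 100 bp of a short RNA gene. For his-37 the next nearest protein-coding 5' end, that of C50F4.6, was 943 bp from the summit, and for hil-7 there was no other within 5 kb.

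The 250 bases before the 5' ends of hil-7 (ce11, chrIV:6646062-6646311, plus strand) and his-37 (ce11, chrV:9546855-9547104, plus strand) are shown because they hold the sites of the optimal list that belong to a single histone gene. They were read from the RefSeq genome of the same assembly. Capitals mark the 21 bases centred on the pooled summit. As most pooled peaks have 1 fixed width of 336 bp, the centre is no more exact than the peak call. The G and C content of these stretches was 48.4% for hil-7 and 45.6% for his-37. That of his-37 holds the hexamer TATAAA, starting 50 bases before the 5' end, and that of hil-7 does not hold it.
hil-7: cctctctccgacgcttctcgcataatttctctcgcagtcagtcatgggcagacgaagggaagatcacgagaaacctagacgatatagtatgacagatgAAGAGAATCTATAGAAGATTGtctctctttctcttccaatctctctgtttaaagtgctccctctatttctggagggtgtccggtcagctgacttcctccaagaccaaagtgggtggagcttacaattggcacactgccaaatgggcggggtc
his-37: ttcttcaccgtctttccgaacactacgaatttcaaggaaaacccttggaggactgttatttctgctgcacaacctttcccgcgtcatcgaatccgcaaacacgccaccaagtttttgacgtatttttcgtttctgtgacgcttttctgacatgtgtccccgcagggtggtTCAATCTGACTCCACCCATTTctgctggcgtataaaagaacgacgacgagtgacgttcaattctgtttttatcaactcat

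The remaining 8 genes with a pooled summit lay well below the thresholded height, in the part of the pooled list that failed the threshold. The authors' -log10 q-values of these 6 summits ran from 0.0377 (his-4 with his-3) to 0.444 (his-15), where those of the 3 optimal sites were 2.06 to 2.25. For his-15 (H2B), at the edge of the large cluster on chromosome II, the summit was 804 bp upstream, beyond the neighbouring gene his-16, with a height of 24.3 in the pooled list, 11.2 in replicate 1 and 6.44 in replicate 2. For his-72, an H3.3 gene on chromosome III, the pooled summit lay 452 bp downstream of the 5' end with a height of 20.8, within 100 bp of the snoRNA gene Y49E10.36. A replicate 1 summit of height 8.01 lay 16 bp from it, and the nearest of replicate 2, of height 10.4, lay 65 bp from it and just beyond the end of the window. The highest summits inside the window were upstream, at 762 bp in replicate 1 (9.93) and at 46 bp in replicate 2 (8.34). Whether the snoRNA gene has a part in the pooled signal was not tested. For the linker gene hil-2 on chromosome IV the summit lay 39 bp downstream (height 19.2 pooled, 10.9 in replicate 1 at 242 bp and 9.17 in replicate 2 at 29 bp downstream). The summit shared by his-31 (H4) and his-32 (H3) had a height of 19.1 and was not between the 2 genes but 495 bp downstream of the 5' end of his-32. Replicate 1 had a summit of height 15 at the same base, and replicate 2 had none in either window. At his-74, an H3.3-like gene on chromosome V, the pooled summit lay 79 bp downstream with a height of 18.4, and neither replicate had a summit in the window. The summit in the spacer of his-4 (H2B) and his-3 (H2A) was the lowest, with a height of 17.0 (rank 6092), 115 bp upstream of his-4. It was found at 10.3 in replicate 1 and 6.35 in replicate 2, and it lay within 100 bp of the ncRNA gene T10C6.19. The median height of the 9 pooled summits was 20.8, against 19.7 over the summits in the windows of all genes.

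Linker histone genes, all of which stand alone, had summits at 6 of 9 in replicate 1 and 6 of 9 in replicate 2 (66.7% each, Wilson interval 35.4 to 87.9). These intervals include the shares of all genes, 39.6% and 40%. Both replicates had one at 5 (55.6%, against 19.9% of all genes) and the pooled list at 2 (22.2%, against 13.3%). The optimal list had one at 1, hil-7 (11.1%, against 0.976%). Apart from hil-7, their heights lay below 15 in both replicate lists, whose medians over all peaks were 9.62 and 6.80. At hil-5 they were 10.6 in replicate 1 and 14.4 in replicate 2 (rank 1055 of 30000), with summits 246 bp apart. At hil-4 the highest was 10.7 in replicate 1 and 9.64 in replicate 2, and at his-24 it was 7.63 and 7.78. A summit was found at hil-8 in replicate 2 alone (11.7, rank 2412) and at hil-3 in replicate 1 alone (10.5), and no list had one at hil-1 or hil-6. The closest summits of the 2 replicates lay within 100 bp of each other at hil-7 (70 bp) and hil-4 (91 bp). Of the 5 H3.3 and H3.3-like genes, 2 (his-72 and his-74) had a pooled summit (40%, Wilson interval 11.8 to 76.9, against 13.3% of all genes). Among the others, his-69 had a summit in replicate 2 alone (height 11.3) and his-70 and his-71 had none in any list.

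Among the canonical core families, pooled summits were found at 2 of 17 H2A genes, 2 of 16 H2B genes, 1 of 15 H3 genes and 3 of 16 H4 genes. These shares, 6.67 to 18.8%, lie near the 13.3% of all genes. Replicate 2 gave 6 of 16 H4 genes (37.5%) and 4 of 15 H3 genes (26.7%) a summit, against 40% of all genes. Replicate 1 gave 3 (18.8%) and 2 (13.3%), against 39.6%. For H2A and H2B genes the shares were 17.6% and 18.8% in replicate 2 and 23.5% and 18.8% in replicate 1. All of these replicate shares lay below those of all genes. Some core histone pairs had a summit in a replicate list and none in the pooled list. The spacer of his-61 (H2A) and his-62 (H2B) on chromosome IV had a summit of height 15.5 (rank 780) in replicate 2, and replicate 1 had none there. The spacer of his-38 (H4) and his-40 (H3) on chromosome X had one of 6.25 in replicate 2 alone. Of the 31 divergent pairs, whose 5' ends lay 228 to 369 bp apart (median 259), 2 had a pooled summit in the spacer, those of his-67 with his-68 and of his-4 with his-3. The 16 spacers between H2A and H2B held 1 pooled summit, and the 14 between H3 and H4 held 0 in the pooled list, 0 in replicate 1 and 1 in replicate 2. In most spacers of both kinds, at most 23.9% of the 50-base words occur once in the genome, a measure described further on. Some spacers in which all words do (100%), as between his-35 and his-41, also held no pooled summit. No share over all genes stands beside these spacer counts.

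**Figure D2:**
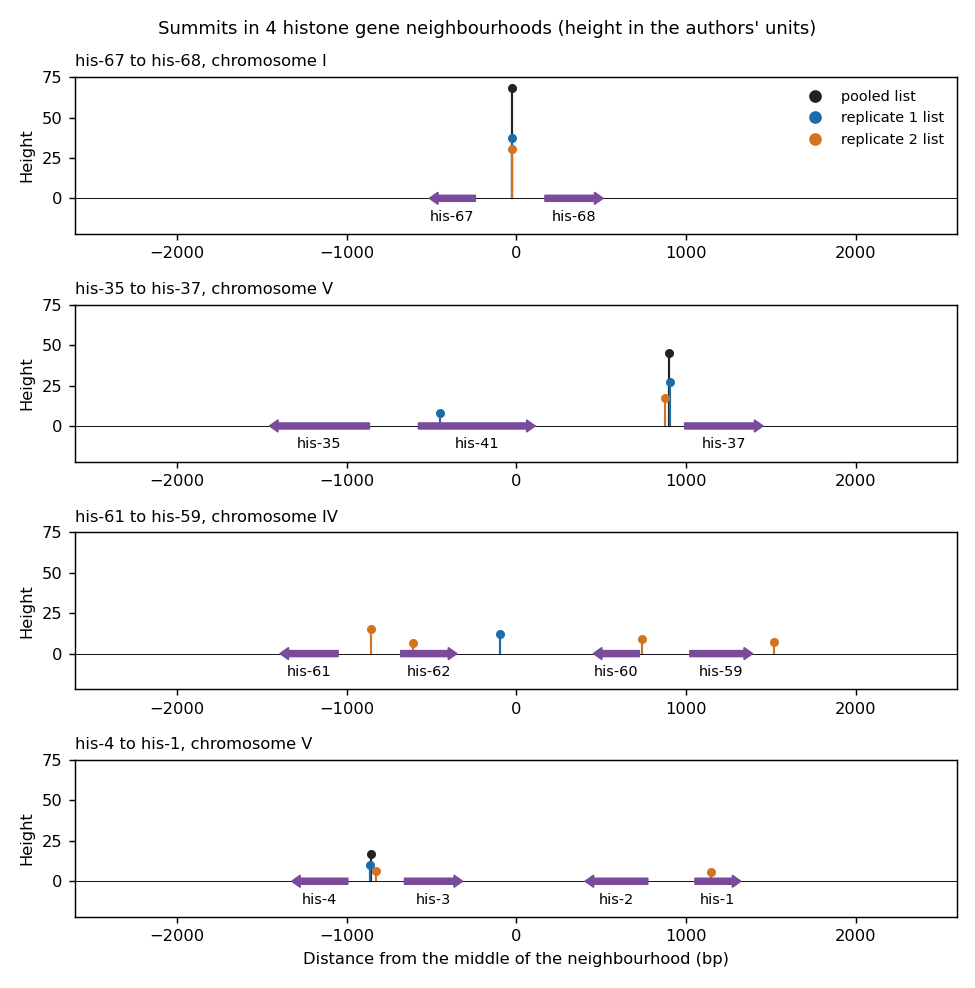
Maps of 4 histone gene neighbourhoods that hold summits, with genes as arrows in the direction of transcription and summits as stems, whose height is in the authors' units (heights are comparable within a list only). The summits of the pooled, replicate 1 and replicate 2 lists lie close together between his-67 and his-68 and just upstream of his-37, whereas in the his-61 to his-59 neighbourhood the 5 summits come from single replicates at different places. The neighbourhoods were picked after their values were seen.

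By position, 13 genes were single, with no other histone 5' end within 10 kb, 6 formed 3 pairs and 61 formed 11 clusters of 3 to 13 genes. The single genes were the 9 linker genes, 3 H3.3 genes and his-73, so that position and histone type cannot be told apart. Of the 13 single genes, 4 had a pooled summit (30.8%, Wilson interval 12.7 to 57.6), against 8 of the 67 others (11.9%, 6.18 to 21.8). The difference, clustered minus single, was -18.8 percentage points, with a Newcombe interval of -46.3 to 1.79. In the replicate 1 list the shares were 61.5% of single and 17.9% of clustered genes (a difference of -43.6 points), and in the replicate 2 list 53.8% and 25.4% (-28.5 points). Their Wilson intervals were 35.5 to 82.3 and 10.6 to 28.7 in replicate 1 and 29.1 to 76.8 and 16.5 to 36.9 in replicate 2. Those of the single genes include the shares of all genes, 39.6% and 40%. In the optimal list 1 of 13 single genes (hil-7) and 3 of 67 clustered genes had a summit (7.69% and 4.48%, against 0.976% of all genes). In the replicate 2 list 5 of the 6 paired genes had a summit, against 12 of the 61 in clusters of 3 or more (19.7%). The share of all genes there was 40%. In the pooled list it was 2 of 6 against 6 of 61 (9.84%), beside 13.3% of all genes. Counted once, the pairs held 3 summits in replicate 2 and 1 in the pooled list, and the larger clusters held 10 and 4, and the contrast was not tested. The optimal list had a summit at 1 of the 61, his-37 (1.64%, against 0.976% of all genes).

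**Figure D3:**
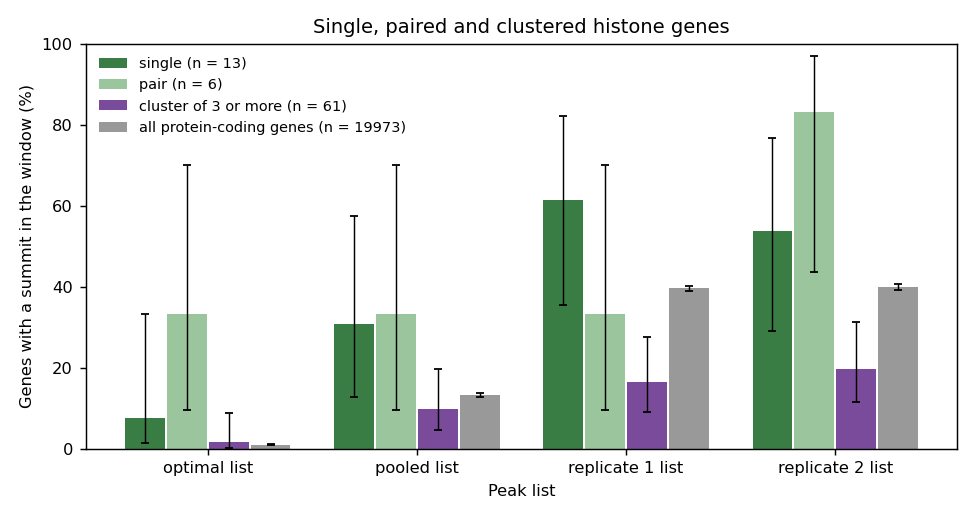
Share of genes with a summit in the window, by peak list, for single, paired and clustered histone genes and for all nuclear protein-coding genes. Bars start at 0 and error bars are 95% Wilson intervals. In each replicate list the genes in clusters of 3 or more (16.4% and 19.7%) lie below all genes (39.6% and 40%), and the single genes (61.5% and 53.8%) lie above. The intervals of the single genes (35.5 to 82.3 and 29.1 to 76.8) include the shares of all genes.

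The clusters differ from the single genes in sequence as well as in position. As a measure of how far a window could be told from the rest of the genome, the share of its 50-base words that occur once, on either strand, was counted. The median over the 80 windows was 45.1%, against 100% over all genes. It was 100% (91.0 to 100) over the single genes, 94.2% over the pairs and 15.9% over the genes in clusters of 3 or more. Under 50% lay 40 of the 80 histone windows, all of them in clusters of 3 or more, against 2.25% of all genes. Of the repeated words in histone windows, 98.1% had another copy in a histone window. The 2 clusters on chromosome V from his-50 to his-53 and from his-28 to his-18 held 14 genes with medians of 0%, and none of them had a summit in any of the 4 lists. The same was true of the 12 genes of the 3 clusters on chromosome IV between 11324056 and 11407427, where the medians were 13.0 to 40.4%. In the cluster of 13 genes on chromosome II, the 2 genes with a summit, his-15 and his-42, lay at or next to its ends. The single-replicate lists and the pooled list together had no summit at 49 of the 80 genes, 46 of them clustered. That is 61.2% of the histone genes, against 40.2% of all genes. The median share of words that occur once was 5.85% over these 49. The 12 genes with a pooled summit had a median of 96.3%.

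**Figure D4:**
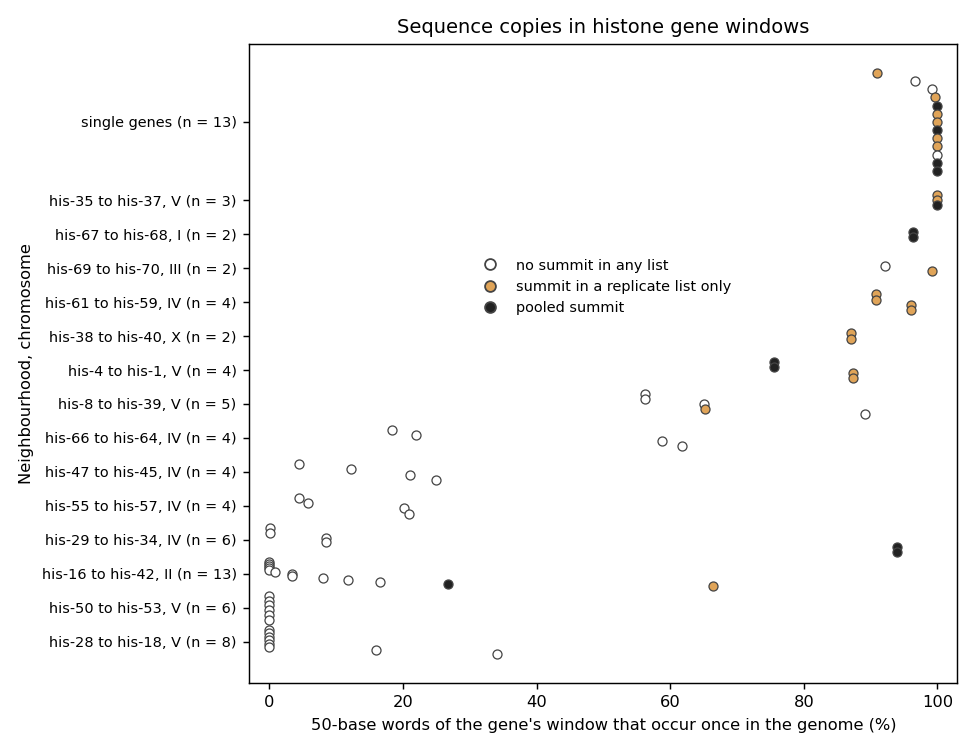
Share of 50-base words that occur once in the genome, for the window of each histone gene, by neighbourhood. Points are filled black for a pooled summit, orange for a summit in a replicate list only and white for none in any list. Of the 40 genes under 50%, 1 (his-15) has a summit.

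Among all genes a low share of such words also went with few summits. Of the 450 genes with a window under 50%, 1.33% had a pooled summit, 2% one in replicate 1 and 5.33% one in replicate 2. Of the 40 histone genes in that range 2.5% had one in each of these 3 lists, which was 1 gene, his-15. In the range from 50 to 90%, 2 of 14 histone genes had a pooled summit (14.3%, against 5.93% of 1653 genes). These 2, his-4 and his-3, share 1 summit. In this range 3 had one in replicate 1 (21.4% against 22.4%) and 8 in replicate 2 (57.1% against 25.3%). Of these 8, his-4 shares its summit with his-3, his-2 with his-1 and his-38 with his-40. The heights of the 8 ran from 5.43 to 8.04, in a list with a lowest height of 4.85 and a median of 6.80. Where at least 90% of the words occurred once, 9 of 26 histone genes had a pooled summit (34.6%, Wilson interval 19.4 to 53.8), against 14.2% of the 17870 genes in the same range. In that range 16 of 26 had one in replicate 1 (61.5%, 42.5 to 77.6), against 42.2% of genes. In replicate 2, 15 of 26 had one (57.7%, 38.9 to 74.5), and this interval includes the 42.2% of genes. An optimal summit was found at 4 of 26 (15.4%, 6.15 to 33.5), against 1.08%. Within this range the order of single and clustered genes was reversed in the pooled list. There, 4 of 13 single (30.8%) and 5 of 13 clustered genes (38.5%) had a summit, a difference of 7.69 points. Counted once, these are 4 summits at the single and 3 at the clustered genes, since his-67 shares its summit with his-68 and his-31 with his-32. Per 100 kb of merged window that is 20.5 and 23.7 pooled summits. In replicate 1 the shares of single and clustered genes in this range were equal (61.5% each). In replicate 2 they were 53.8% and 61.5%, and for a summit in both replicates 46.2% and 30.8%. This range was chosen after the peak lists had been seen. The labels and files do not state how reads that match several places were treated when peaks were called, and whether this has a part in the low counts of the clusters was not tested.

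The spacers of H2A and H2B pairs on chromosome V show how near these copies are. The spacer of his-4 and his-3 (ce11, chrV:16040516-16040807, plus strand), with a pooled summit, and that of his-51 and his-52 (ce11, chrV:8850172-8850463, minus strand) are both 292 bases long. The latter occurs in 4 identical copies, between his-51 and his-52, his-54 and his-53, his-21 and his-22, and his-20 and his-19, and 0 of these held a summit in any list. None of its 50-base words occurs once in the genome, whereas all of those in the his-4 spacer do (100%). The summit in the his-4 spacer was the lowest of the 9 pooled summits at histone genes and failed the threshold. Its height was 17.0 (rank 6092 of 7443), in a list with a lowest height of 16.2. A spacer of the same length between his-8 and his-7, with an identity of 86.99% to that of his-4 and 85.6% of its words occurring once, also held 0 summits in any list. The spacers of his-4 with his-3 and of his-51 with his-52 are printed from the H2B gene to the H2A gene. Capitals mark the 33 positions at which they differ, which leaves an identity of 88.7%. Each holds the hexamer TATAAA on 1 strand.
his-4/his-3: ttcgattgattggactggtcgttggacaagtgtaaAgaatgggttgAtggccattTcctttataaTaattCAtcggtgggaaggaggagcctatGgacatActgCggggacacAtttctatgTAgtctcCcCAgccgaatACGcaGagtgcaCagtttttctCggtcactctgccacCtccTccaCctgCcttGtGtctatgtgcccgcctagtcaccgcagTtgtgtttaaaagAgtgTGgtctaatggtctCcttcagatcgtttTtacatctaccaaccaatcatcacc
his-51/his-52: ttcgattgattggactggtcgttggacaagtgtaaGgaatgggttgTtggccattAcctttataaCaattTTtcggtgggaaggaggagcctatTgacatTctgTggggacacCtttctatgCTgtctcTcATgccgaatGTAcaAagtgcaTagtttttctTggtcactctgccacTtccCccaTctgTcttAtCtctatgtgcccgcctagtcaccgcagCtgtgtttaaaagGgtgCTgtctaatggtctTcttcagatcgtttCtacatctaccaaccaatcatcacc

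Promoters, taken as 250 bases before to 50 bases after the 5' end, were searched on both strands for 4 heptamers that forkhead domains can recognise and for the hexamer TATAAA. The heptamers were ATAAACA with its variant ATAAATA, then GTAAACA with its variant GTAAATA, and matches to the hexamer and to a heptamer may overlap. At least 1 heptamer occurred in 11 of the 80 histone promoters (13.8%), against 33.9% of all promoters. Among the 12 genes with a pooled summit it occurred at 1, his-68. The hexamer occurred in 51 of the 80 (63.8%), against 37.9% of all promoters, and at 6 of the 12. Histone windows were richer in G and C, with a median of 44.9% over the window against 35.2% over all genes. Over the single genes it was 36.6% and over the clustered genes 45.2%. These are descriptions of letters, and many of the promoters are copies of each other.

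Genes of other histone forms and of histone supply were scored in the same way, from a list of 19. A pooled summit lay at 8 (42.1%, against 13.3% of all genes). A replicate 1 summit lay at 12 and a replicate 2 summit at 12 (63.2% each, against 39.6% and 40% of all genes). Both replicates had one at 8 (42.1%, against 19.9%). The optimal list had 1 (5.26%, against 0.976%), at spr-2, a relative of nucleosome assembly proteins. The height at spr-2 was 37.2 in the pooled list, 20.9 in replicate 1 and 16 in replicate 2. Next came htz-1, which encodes the H2A variant H2A.Z, with a pooled height of 35.9, just under the lowest optimal height. Its heights were 26.0 in replicate 1 and 9.96 in replicate 2. Pooled heights were 25.7 at lin-53, whose product is a histone-binding chaperone subunit, 22.2 at spt-16 and 17.2 and 16.4 at hmg-4 and hmg-3, all 3 for subunits of the FACT chaperone, 20.2 at unc-85, for an ASF1 chaperone, and 17.4 at nasp-2. For cdl-1, whose product binds the stem-loop of core histone mRNAs, replicate 2 alone had a summit, with a height of 5.43. The centromeric H3 gene hcp-3 had none in any list, and cpar-1, a close relative of it, had 1 in replicate 2 (6.20).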

How the data were processed

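ChIP-seq of tagged FKH-10 was analysed from 4 ce11 peak lists of 2 biological replicates in 1 group. The authors called relaxed peaks against a control, in each replicate and in both together, and thresholded them by irreproducible discovery rate to give the optimal list, per the file lists deposited with the data. The labels and files name no aligner or peak caller, nor how reads with several matches were treated. Each deposited peak has a height, a signal on the scale of the authors' caller, and a deposited -log10 q-value, which was not used to select peaks. Read depth is unknown. The ce10 lists, signal tracks and alignments were not used here.

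Summits (peak start plus offset, 1-based) were counted from 1000 bp upstream to 500 bp downstream of 5' ends in Ensembl release 115. RefSeq gave symbols, products and sequence of the same assembly. Words of 50 bases, and of 36 as an alternative, were counted over the whole genome. Genes are named if they had an optimal or pooled summit, are linker genes, or belong to the list of 19 with a pooled summit. Others were named after their values were seen. Members and lists were chosen with earlier results of these data known. Shares carry 95% Wilson intervals, which cover counting error only. The counting was tested on simulated data. Python 3.11.15, numpy 2.4.6, scipy 1.17.1 and matplotlib 3.10.9 were used.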

Additional observations from a re-analysis of the deposited data

How the results depend on the processing

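Other windows, peak overlap in place of summits, the nearest 5' end alone, peaks above each list's median height and the 5' ends of all transcripts were tried for the 6 results. With peaks above the median height alone, 2 genes had an optimal summit, 6 a pooled one and 9 one in both replicates. With the nearest 5' end alone, 13 genes had a summit in replicate 1 and 15 in replicate 2. In all other settings tried the counts were within 1.5 times the reported ones. The 378 strongest peaks of either replicate alone gave 3 genes with a summit, his-67 and his-68 in both, with his-37 in replicate 1 and hil-7 in replicate 2. The clustered minus single difference ran from -43.6 to -28.5 points in the lists of single replicates and was smallest, -9.41 points, with peaks above the median height alone. Its sign was the same in all 10 settings that kept every gene. Of these, distances of 5 and 20 kb for clustered genes and the 5' ends of all transcripts left the counts unchanged (-18.8 points each). They therefore add nothing to that agreement. It was 7.69 points (50-base words) and 6.49 points (36-base words) in windows at least 90% unique, 2 settings added later that leave 26 and 18 genes and count shared summits once per gene. No paired analysis was possible because there was 1 group. Without read counts, a weak site and an absent one could not be told apart.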
